A study of Mus musculus with 6 samples.

Results

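The nuclear receptors are a superfamily of transcription factors, and 45 of their genes were followed here in GLUTag cells, a murine cell line of enteroendocrine type that secretes the incretin hormone GLP-1. The members were chosen by name, as the nuclear receptor genes other than Nr1d1 and Nr1d2, and not by any measured value. All 45 were found by gene identifier among the 54281 genes of the deposited count table.

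The study profiled this line to learn whether it could serve as a model for the activity of NMDA receptors, which are activated by glutamate. It compared the line's transcriptome with those of murine and human gut cells. The RNA was taken from 6 wells of untreated GLUTag cells, grown for 48 h on Matrigel in DMEM with 1 g/L glucose and 10% FBS. Plate 1 held 3 wells at passage 23 and plate 2 held 3 wells at passage 27, so that plate and passage cannot be told apart. The wells come from 2 cultures of 1 cell line in a single condition, no source says that wells of a plate were separate cultures, and the p-values below measure only the spread between wells.

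Most nuclear receptors carry a DNA-binding domain and a ligand-binding domain and switch genes on or off at short hormone response elements. Steroid receptors act as homodimers after binding a hormone that has crossed the membrane, whereas receptors for thyroid hormone, retinoic acid, vitamin D, oxysterols, bile acids and fatty acids share the retinoid X receptors (RXR) as partners. Many others are orphans with no established physiological ligand, and all recruit coactivator or corepressor complexes. In the gut, members of the family respond to bile acids and dietary lipids and take part in epithelial differentiation.

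The libraries were made with a kit that primes from the polyA tail and reads the 3′ end of a transcript, so that counts should not grow with transcript length. A count is an estimate from reads and not a number of molecules. Each count was expressed per M counts of its library (CPM), and levels of different genes were set side by side on that scale. A bias particular to 1 gene, such as reads that belong to an overlapping gene, would recur in every library. No test over libraries measures it. Library totals ran from 21399987 to 36488198 counts. A gene was called detected where it had more than 3 counts in every library, since a count of 0 allows up to 3 counts, which is 0.0822 to 0.14 CPM depending on the library. This limit covers counting error only. Of 10 markers of enteroendocrine cells, 9 were detected in every library, with a summed level of 5696 to 7624 CPM, while the peptide hormone gene Pyy had only 2 to 17 counts. The 6 enterocyte markers summed to 0.542 to 1.78 CPM, with Fabp2 and Apob at 0 in all libraries. Of these 6, 2 were detected in every library at a low level, Alpi (0.659 CPM) and Apoa1 (0.410 CPM). Likewise 2 of 3 leukocyte markers were detected, Cd68 (0.633 CPM) and Itgam (1.24 CPM). None of the 2 Paneth and 3 hepatocyte markers was detected. Of the markers of other cells, Tff3 of goblet cells (37.8 ± 2.4 CPM, SD, n = 6) and Col1a2 of fibroblasts (5.87 ± 0.93 CPM) were above 5 CPM. The rest of those 2 lists was not detected. The goblet genes Muc2 and Spdef had at most 6 and 3 counts. The fibroblast genes Col1a1, Dcn and Pdgfra had at most 12, 4 and 4 counts.

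Promoter sequence was set beside the levels, using the windows of 250 bases before to 50 bases after a transcription start that RefSeq gives on GRCm38.p6. Entries were found for 41 of the 45 members, not for Thra, Hnf4g, Nr3c1 and Nr5a1, and where a gene had several starts the window with the highest CpG content relative to its base composition was taken. The windows below were chosen to show how unlike the promoters of abundant members were, beside that of a member with no count. Nr2c2 had the highest mean of the 6 libraries, Nr2f2 had the third highest, and Ppara had a count of 0 in every library. The first 3 have each CG dinucleotide in capitals. The window of Nr1h4, the bile acid receptor gene, is shown for its single match to the nuclear receptor core hexamer, which is in capitals as the reverse complement TGACCT.
Nr2c2, chr6:92092183-92092482, plus strand: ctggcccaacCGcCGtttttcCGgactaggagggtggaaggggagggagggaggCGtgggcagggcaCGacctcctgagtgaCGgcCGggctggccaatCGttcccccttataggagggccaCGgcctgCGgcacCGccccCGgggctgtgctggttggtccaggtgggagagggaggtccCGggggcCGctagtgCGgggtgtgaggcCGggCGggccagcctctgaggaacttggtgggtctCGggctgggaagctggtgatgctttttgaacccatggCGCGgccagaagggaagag
Nr2f2, chr7:70366697-70366996, minus strand: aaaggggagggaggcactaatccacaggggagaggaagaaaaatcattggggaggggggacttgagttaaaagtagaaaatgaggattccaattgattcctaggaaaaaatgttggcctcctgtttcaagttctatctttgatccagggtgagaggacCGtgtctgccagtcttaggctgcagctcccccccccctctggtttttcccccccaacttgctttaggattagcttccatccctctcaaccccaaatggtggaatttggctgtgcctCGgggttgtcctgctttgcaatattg
Ppara, chr15:85735526-85735825, plus strand: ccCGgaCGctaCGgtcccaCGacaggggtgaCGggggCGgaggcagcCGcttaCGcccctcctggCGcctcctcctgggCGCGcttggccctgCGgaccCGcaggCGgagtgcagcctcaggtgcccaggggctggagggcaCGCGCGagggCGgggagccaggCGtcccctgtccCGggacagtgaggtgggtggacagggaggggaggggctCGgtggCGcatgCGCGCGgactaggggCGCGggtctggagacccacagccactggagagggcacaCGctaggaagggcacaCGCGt
Nr1h4, chr10:89506609-89506908, minus strand: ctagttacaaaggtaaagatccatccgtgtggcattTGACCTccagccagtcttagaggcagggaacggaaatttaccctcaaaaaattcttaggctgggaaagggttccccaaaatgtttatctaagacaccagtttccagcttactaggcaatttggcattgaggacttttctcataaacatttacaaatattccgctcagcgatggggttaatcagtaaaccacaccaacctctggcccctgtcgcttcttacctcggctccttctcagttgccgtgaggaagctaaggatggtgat

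The Nr2c2 window held 20 CG dinucleotides and the Nr2f2 window only 2, although both genes were among the 3 highest. The Ppara window held 30 CG dinucleotides, more than either, and no transcript of that gene was counted. Over the 26 detected members with a window the median ratio of observed to expected CpG was 0.743, and over the 15 members not detected in every library it was 0.595. The same medians over all genes with a window were 0.788 for 10558 detected genes and 0.233 for 9853 genes that were not. The 6 members at 0 in every library ranged from 0.130 to 0.770, so that low and high CpG windows both occurred among members with no count. These values describe the listed windows, and they were not tested.

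Motifs of 3 kinds were searched on both strands of the same windows, where a match is a description of letters and not a site. The core hexamer AGGTCA was found in 4 of 41 windows (9.756%), those of Thrb, Pparg, Nr1h4 and Nr0b1, against 14.52% of 20411 gene windows of the same length. The cAMP response element TGACGTCA occurred in 2 windows, those of Nr2e1 and Nr6a1, and in 2.254% of all. The element AAAGGTCA, which is read by monomers of the NR4A family and holds the core hexamer within it, occurred in 0 of 41 member windows and in 1.318% of all.

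**Figure D1:**
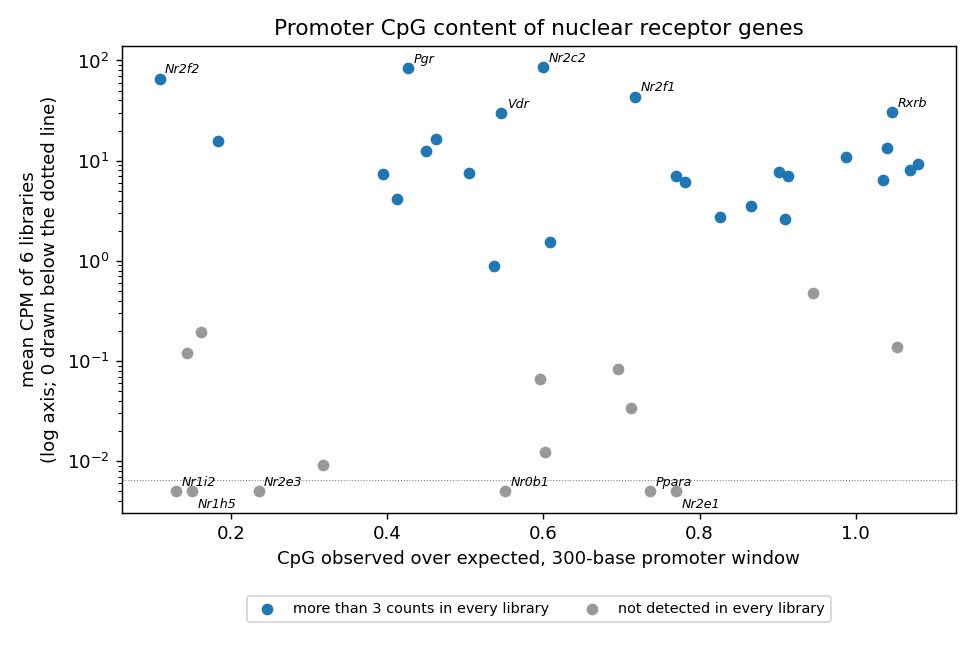
Ratio of observed to expected CpG in the 300-base promoter window (x axis) against the mean CPM of the 6 libraries (y axis, log scale, values of 0 drawn below the dotted line) for the 41 members with a RefSeq window, blue where the gene was detected in every library and grey where it was not. The abundant Nr2f2 lies at the left end at 0.109, whereas Ppara and Nr2e1, with a count of 0 in every library, lie at 0.736 and 0.770.

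Of the 45 members, 28 were detected in every library, against 28.1% of all 54281 genes in the table. A member was detected in 14 of the 17 subfamilies. The exceptions were the ROR, NR2E and NR0B subfamilies. The family summed to 567 ± 53.6 CPM (SD, n = 6), from 511 to 633 CPM, and the 5 highest members took 57.6 ± 1.57% of it. These 5 were Nr2c2, Pgr, Nr2f2, Thra and Nr2f1, an orphan receptor, a steroid receptor, an orphan, a thyroid hormone receptor and another orphan. Their order of means over the libraries was the same under each other scaling tried and without any 1 library, but not within each plate. Nr2c2 was above Pgr in 4 of 6 libraries, with means of 80.3 and 67.5 CPM on plate 1 and of 91.2 and 99.2 CPM on plate 2. The median over the 28 detected members was 8.73 CPM, below the 13.8 CPM over all 15271 detected genes, and their median coefficient of variation between libraries was 17.6% against 22.6%. In the order of means, 4 of the 27 pairs of neighbours differed in the same direction in every library (Nr2f1 over Rxrb, Nr3c1 over Esr1, Esrra over Nr5a2 and Rara over Nr3c2), and only Nr3c1 and Esr1 had ranges that did not overlap.

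**Figure D2:**
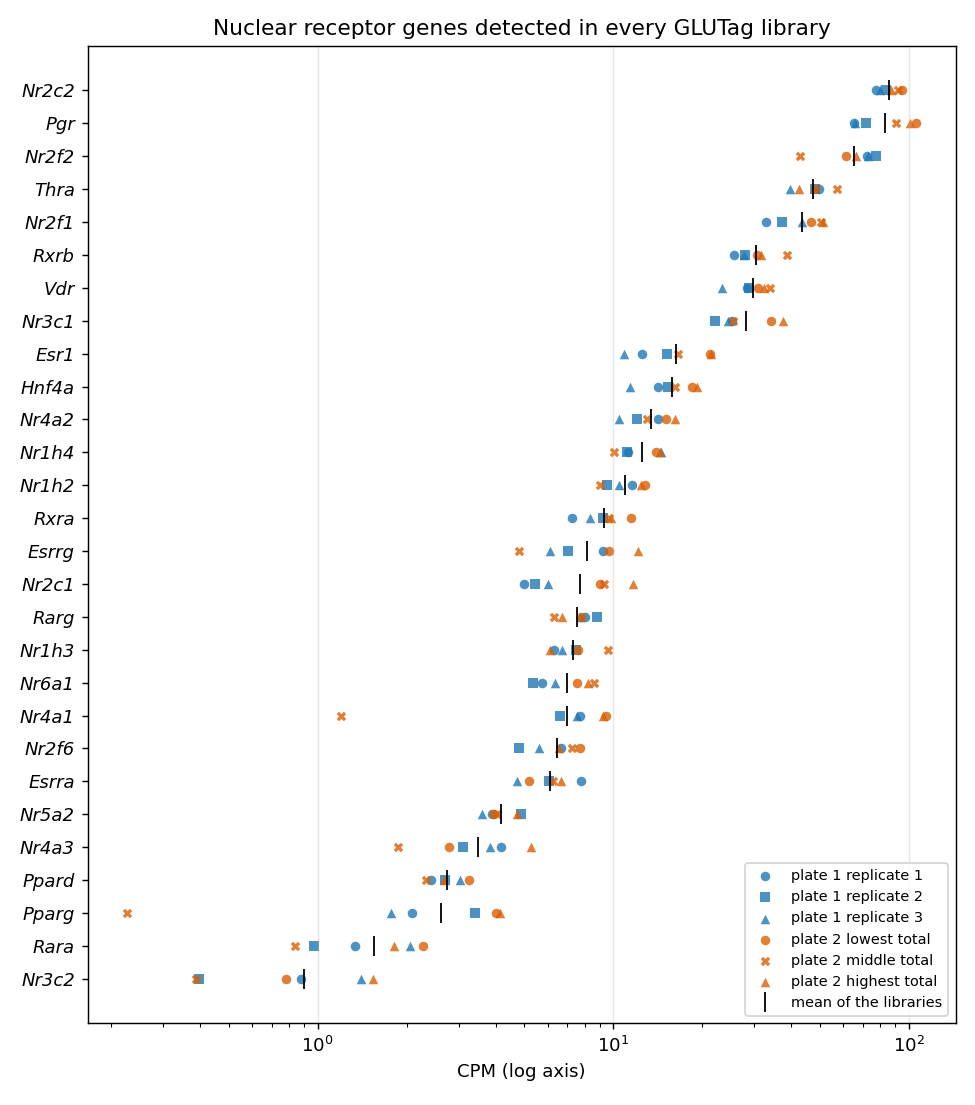
CPM (x axis, log scale) of the 28 members detected in every library, ordered by mean, with plate 1 in blue, plate 2 in orange and a black bar at the mean of the 6 libraries. The means run from 85.8 CPM for Nr2c2 to 0.897 CPM for Nr3c2, and the middle-total library of plate 2 lies far to the left for Nr4a1 and Pparg.

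Values in single libraries are given below in the order of plate 1 replicates 1, 2 and 3, followed by the plate 2 libraries with the lowest, middle and highest total count. Which replicate number each column of plate 2 belongs to is not known. These CPM use the column total, on which every plate 2 library lay above plate 1 for 35.2% of the 15669 genes tested between plates and below it for 4.0%, and the test of the plates on another scaling is given at the end. Related receptors were compared within each library by the log2 ratio of CPM + 0.1, for 18 pairs, and the 6 ratios of a pair were tested against 0 by exact permutation of their signs (two-sided), where no p can be under 0.03125. A pair that went the same way in 6 of 6 libraries had that p and an adjusted p (Benjamini-Hochberg over the 18 pairs) of 0.046875, and this held for 12 pairs.

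The RXR genes encode the shared partners, and Rxrb was their main transcript. Rxrb (chromosome 17 of GRCm38, 34031812 to 34038399, plus strand) had 25.5, 28.01, 27.8, 30.7, 38.8 and 31.7 CPM. Rxra had 7.25, 9.23, 8.36, 11.5, 9.70 and 9.87 CPM. Both were lower on plate 1 than in every plate 2 library on this scale, and Rxrb exceeded Rxra in 6 of 6 libraries by a log2 ratio of 1.70 ± 0.20 (SD), which is 3.24-fold. Rxrg, the form best known from muscle and brain, had at most 1 count in any library.

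Among the receptors that pair with RXR, the thyroid hormone receptor gene Thra was the most abundant. Thra (chromosome 11, 98740638 to 98769006, plus strand) had 49.6, 48.0, 39.6, 48.0, 57.3 and 42.6 CPM, and the plates overlapped. Its paralogue Thrb had 3 to 23 counts and passed the detection limit in 5 libraries. The exons of Thra share 263 bases with Nr1d1 on the opposite strand, 247 of them within 500 bases of an annotated transcript end, and Nr1d1 was at 3.77 CPM. The strand setting of the counting is not named in the sources used here, so reads of the overlap could belong to either gene.

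For thyroid hormone supply, 3 of 5 listed genes were detected, led by the transporter gene Slc16a10 (24.9 ± 5.5 CPM). The target genes Thrsp (3.50 ± 0.84 CPM) and Klf9 (2.90 ± 1.1 CPM) were detected, 2 of 3 listed.

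The retinoic acid receptor genes were lower. Rarg had 8.002, 8.84, 7.71, 7.76, 6.31 and 6.71 CPM, the middle and highest-total libraries of plate 2 being the lowest. Rara had 1.55 ± 0.59 CPM, from 22 to 66 counts, and Rarg exceeded it in 6 of 6 libraries, by a log2 ratio of 2.29 ± 0.56. Rarb, itself a classical retinoic acid target, had at most 9 counts, and its exons share 1793 bases with the opposite-strand gene Top2b, which was at 157 CPM.

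Of 11 genes of retinoid metabolism and binding, 5 were detected. Aldh1a3, which makes retinoic acid from retinal, was highest at 68.3 ± 25 CPM, followed by the retinol dehydrogenase gene Rdh10 at 8.08 ± 1.5 CPM. Aldh1a3 was at 23.0 CPM in the middle-total library of plate 2 and at 61.7 CPM or more in the other 5. Aldh1a2 had a count of 0, Aldh1a1 at most 1 and Cyp26a1 at most 2 counts in any library.

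Vdr, the vitamin D receptor gene (chromosome 15, 97854425 to 97910630, minus strand), had 28.3, 28.8, 23.3, 30.8, 34.1 and 32.4 CPM, and every plate 2 library lay above plate 1. The xenobiotic receptor gene Nr1i2 had no count in any library and was below what this depth can detect. Nr1i3, the other xenobiotic receptor gene, had at most 10 counts and shares 3304 exonic bases with the opposite-strand gene Tomm40l, which was at 23.8 CPM.

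Receptors of sterols and bile acids stood close together. Nr1h4, encoding the bile acid receptor FXR (chromosome 10), had 11.3, 11.1, 14.5, 14.0, 10.0 and 14.4 CPM. Nr1h2, encoding the oxysterol receptor LXRβ, had 11.5, 9.50, 10.5, 12.9, 8.99 and 12.4 CPM. The 2 genes took their lowest plate 2 value in the same library, the one with the middle total, and differed by only 0.19 ± 0.17 on the log2 scale (5 of 6 libraries, exact permutation p = 0.0625, adjusted p = 0.0703125). Nr1h3, encoding LXRα, had 6.29, 7.47, 6.73, 7.62, 9.61 and 6.11 CPM and was highest in that same library. Nr1h4 exceeded it in 6 of 6 libraries, by a log2 ratio of 0.77 ± 0.42, while Nr1h2 exceeded it in 5 of 6 (0.58 ± 0.40, adjusted p = 0.0703125). Nr1h5 was at 0 in all libraries.

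Of 9 listed LXR and FXR target genes, 5 were detected, all of them known as LXR targets. The highest were the cholesterol exporter gene Abca1 (33.4 ± 12 CPM) and the lipogenic factor gene Srebf1 (25.5 ± 14 CPM). The intestinal FXR targets Slc51a, Slc51b and Fabp6 had at most 0, 1 and 3 counts in any library, and Fgf15 at most 5.

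The PPAR genes, encoding fatty acid receptors, had the lowest sum of the subfamilies that pair with RXR, 5.34 ± 1.74 CPM. Ppard had 2.73 ± 0.351 CPM (58 to 98 counts) and Pparg 2.61 ± 1.52 CPM (7 to 151 counts). Their order changed between libraries, with Ppard higher in 3 of 6 (mean log2 ratio 0.43 ± 1.30, exact permutation p = 0.59375). That mean rested on the middle-total library of plate 2, where the log2 ratio was 2.90, and without it the mean was -0.06. Ppara was at 0 in all libraries. Of 7 listed PPAR targets 4 were detected, among them the lipid droplet gene Plin2 (14.5 ± 1.9 CPM), whereas Pdk4 was at 0 in all libraries.

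Rora and Rorb, which encode monomeric receptors, had at most 6 and 4 counts.

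Pgr was by far the most abundant steroid receptor gene in these cells. Pgr, the progesterone receptor gene (ENSMUSG00000031870, chromosome 9), had 65.4, 71.4, 65.7, 106, 90.6 and 101 CPM, and the lowest plate 2 value was above the highest plate 1 value. Nr3c1, encoding the glucocorticoid receptor, had 25.2, 22.2, 24.5, 34.3, 25.4 and 37.5 CPM. Pgr exceeded Nr3c1 in 6 of 6 libraries, by a log2 ratio of 1.56 ± 0.18, or 2.95-fold, with little spread between libraries. The mineralocorticoid receptor gene Nr3c2 was the lowest of all detected members at 0.897 ± 0.486 CPM (9 to 56 counts), and Nr3c1 exceeded it in 6 of 6 libraries by 4.95 ± 0.64.

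Esr1, encoding oestrogen receptor α, had 12.5, 15.2, 10.8, 21.2, 16.6 and 21.5 CPM, again lower on plate 1. Esr2 had at most 6 counts and was above the limit in 2 libraries.

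The chaperones that hold steroid receptors ready for hormone were abundant, with Hsp90aa1 at 3286 ± 359 CPM and Hsp90ab1 at 3213 ± 273 CPM, and 7 of 8 genes of that list were detected. It also holds glucocorticoid targets, of which Fkbp5 was at 39.4 ± 9.5 CPM and Zbtb16 at 0. Of 8 genes of steroid and vitamin D metabolism only Hsd17b4 (11.6 ± 2.6 CPM) and Srd5a1 (3.50 ± 0.81 CPM) were detected. Hsd11b1, which regenerates active glucocorticoid, was at 0 in all libraries, as were Cyp24a1, which degrades vitamin D, and the aromatase gene Cyp19a1, and Cyp7b1 had at most 1 count.

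The orphan receptors held 3 of the 5 highest members. Nr2c2, encoding the testicular receptor TR4, had 77.8, 83.5, 79.8, 95.04, 91.8 and 86.8 CPM, with a coefficient of variation of 7.88%, the smallest among the detected members. Nr2c1 (ENSMUSG00000005897), encoding TR2, had 5.00, 5.43, 6.03, 9.04, 9.32 and 11.7 CPM, with every plate 2 library above plate 1. Nr2c2 exceeded Nr2c1 in 6 of 6 libraries, by a log2 ratio of 3.52 ± 0.41, or 11.5-fold. The annotation places 4590 exonic bases of Nr2c2 opposite Mrps25, 1000 of them within 500 bases of a transcript end, and Mrps25 was at 65.1 CPM. Part of the Nr2c2 counts could therefore come from Mrps25 if the counting did not use strand, and this was not tested.

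The COUP-TF genes summed to 116 ± 8.53 CPM, against 112 ± 23.7 CPM for the corticoid and progesterone receptors, and which of these subfamilies was higher differed between the plates. Nr2f2, encoding COUP-TFII (ENSMUSG00000030551), had 72.4, 77.6, 72.7, 61.2, 43.0 and 66.2 CPM, and all plate 1 values were above those of plate 2. Nr2f1, encoding COUP-TFI, had 33.0, 37.4, 43.5, 46.7, 50.3 and 51.2 CPM, the opposite order of plates. Nr2f2 exceeded Nr2f1 in 5 of 6 libraries, with a mean log2 ratio of 0.97 on plate 1 and 0.18 on plate 2 (exact permutation p over 6 libraries, adjusted, 0.0703125). Nr2f6, the third member, had 6.67, 4.82, 5.61, 7.69, 7.28 and 6.58 CPM and was below both in 6 of 6 libraries. Nr2f6 shares 1622 exonic bases with the opposite-strand gene Ocel1, which was at 29.6 CPM.

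Hnf4a, a master regulator of the gut epithelium and liver (chromosome 2), had 14.1, 15.3, 11.4, 18.5, 16.2 and 19.3 CPM, with plate 1 below plate 2. Hnf4g had 0 to 13 counts and passed the limit in 4 libraries.

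Of the oestrogen-related receptors, which control mitochondrial genes, Esrrg had 9.21, 7.03, 6.12, 9.69, 4.79 and 12.1 CPM. Esrra had 7.75, 6.05, 4.72, 5.20, 6.24 and 6.66 CPM. Esrrg was lowest and below Esrra in the middle-total library of plate 2, and above it in the other 5 (mean log2 ratio 0.36 ± 0.47, exact permutation p = 0.15625, adjusted p = 0.165). Esrra shares 73 exonic bases, all near a transcript end, with the abundant opposite-strand gene Trmt112 (254 CPM). Esrrb had at most 2 counts.

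The NR4A genes are immediate early genes, induced within minutes by cAMP or calcium signals. Nr4a2 had 14.1, 12.0, 10.5, 15.1, 13.0 and 16.2 CPM. Nr4a1 had 7.71, 6.58, 7.57, 9.44, 1.20 and 9.26 CPM, so that a single library, the middle-total one of plate 2, lay far below the other 5. Nr4a3 had 3.50 ± 1.18 CPM (58 to 192 counts). Nr4a2 exceeded Nr4a1 in 6 of 6 libraries, by a log2 ratio of 1.16 ± 1.07, where the outlying library gave 3.33. Nr4a2 also exceeded Nr4a3 in 6 of 6 (1.97 ± 0.50), whereas Nr4a1 exceeded Nr4a3 in 5 of 6 (0.80 ± 0.77, adjusted p = 0.0703125). Of 10 other immediate early genes 9 were detected, Junb (11.9 ± 3.1 CPM) and Dusp1 (11.6 ± 1.9 CPM) being the highest, and their sum was 50.2 CPM in that library against 61.0 to 77.3 CPM in the other 5.

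Nr6a1, the germ cell nuclear factor gene, had 5.75, 5.35, 6.36, 7.55, 8.64 and 8.22 CPM, and plate 2 lay above plate 1. Nr5a2, which encodes LRH-1, a driver of bile acid and intestinal glucocorticoid synthesis, had 4.17 ± 0.50 CPM and was below Nr6a1 in 6 of 6 libraries, by a log2 ratio of 0.71 ± 0.33. Nr5a1, the steroidogenic factor gene, had at most 4 counts.

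The NR0B and NR2E receptors were close to absent from the counts. Nr0b1, Nr2e1 and Nr2e3 were at 0 in all libraries, as were Nr1i2, Ppara and Nr1h5, which makes 6 members below what this depth can detect. Nr0b2, encoding the FXR-induced corepressor SHP, had 0 counts in each plate 1 library and 4, 15 and 20 counts in the plate 2 libraries.

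**Figure D3:**
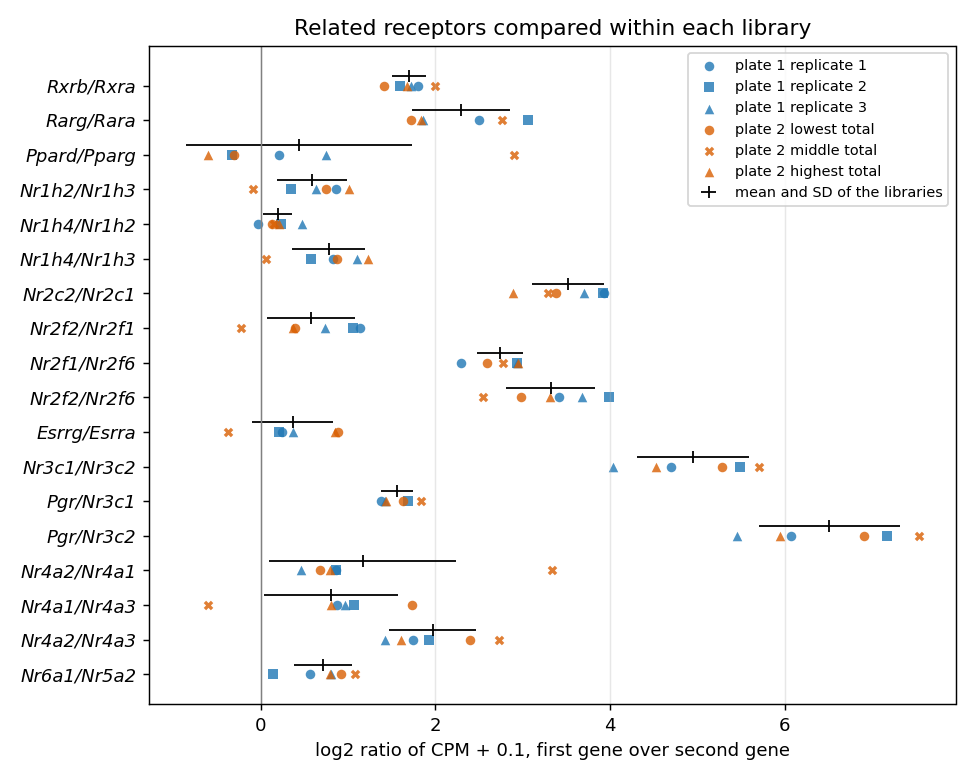
Log2 ratio of CPM + 0.1 between related receptors within each library (x axis) for the 18 pairs tested, plate 1 in blue and plate 2 in orange, with the mean and SD of the 6 libraries in black above the points. All libraries lie right of 0 for 12 pairs, while the middle-total library of plate 2 departs from the rest for Ppard/Pparg, Nr4a2/Nr4a1 and Nr4a1/Nr4a3.

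The coregulators through which these receptors act were nearly all present. Of 11 coactivators 10 were detected, led by Ncoa7 (98.2 ± 11 CPM) and the acetyltransferase gene Crebbp (93.0 ± 18 CPM). The exception was Ppargc1a, which encodes PGC-1α and had at most 4 counts. All 8 corepressor genes were detected, with Ncor1 at 258 ± 12 CPM and Gps2 at 153 ± 14 CPM.

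The middle-total library of plate 2 departed from the other plate 2 libraries over many genes, and some members took part. At least 2-fold lower there were 5 of 28 detected members, against 8.7% of 15271 detected genes, and 0 members were at least 2-fold higher, against 1.07% of genes. Pparg was at 0.226 CPM there (7 counts) and at 4.08 CPM on average in the other plate 2 libraries, 12.8-fold lower on the scale of CPM + 0.1, which was used for the folds of this comparison and understates those of low genes. Nr4a1 was 7.29-fold lower, at 1.20 against 9.35 CPM. Nr3c2, Rara and Esrrg were 2.46, 2.26 and 2.23-fold lower, the first and second of them at low counts. With a pseudocount of 1 CPM in place of 0.1 CPM, 3 members were past 2-fold. The 8.7% of genes was counted with 0.1 CPM, and no share of all genes is given for 1 CPM. Those 3 members therefore have no background and show only that the count depended on the pseudocount. The median log2 difference was -0.21 over the members and -0.02 over all genes. In the NR4A subfamily the paralogues did not move alike, since Nr4a2 was only 1.20-fold lower and Nr4a3 1.99-fold. This compares 1 library with its neighbours and has no replicate. Counted in the same way against the rest of its plate, each other library had 0 or 1 members at least 2-fold lower, against 0.799% to 2.44% of genes, and 0 to 4 at least 2-fold higher, against 0.773% to 3.86%. The 4 higher members were in the plate 2 library with the highest total, where the 3.86% was also found. For the lowest and highest-total libraries of plate 2 the rest of the plate includes the middle-total library. Their counts of higher genes and members are therefore not separate from its low values.

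The design holds a single comparison between groups, plate 2 at passage 27 against plate 1 at passage 23. It was tested with edgeR's quasi-likelihood test on TMM-scaled counts over 15669 genes, with Benjamini-Hochberg adjustment over all of them and an adjusted p under 0.05 as threshold. No member was called, 0 of the 29 tested (the 28 detected members and Thrb), against 0.0128% of genes called higher on plate 2 (2 genes) and 0.172% called lower (27 genes). At an unadjusted p under 0.05 there were 4 members, against 16.1% of genes, which is near the background. DESeq2 called 1 member, against 3.73% of genes, and limma-voom 0, against 0.0638%.

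The 3 members with the smallest p were Nr2f2, Nr2c1 and Rarg. Nr2f2 was at 81.5 TMM-scaled CPM on plate 1 and 51.7 on plate 2, a log2 difference of -0.66 ± 0.16 (SE, edgeR adjusted p = 0.119). Nr2c1 was at 6.02 and 9.13, a log2 difference of 0.60 ± 0.18 (SE, edgeR adjusted p = 0.172). Rarg was at 8.99 and 6.31, a log2 difference of -0.51 ± 0.17 (SE, edgeR adjusted p = 0.202). Next came Pgr, named after its values were seen, at 0.29 ± 0.11 (SE, edgeR adjusted p = 0.265). On the TMM scale the plates did not overlap for 2 members higher on plate 2 (Nr2c1 and Pgr), against 12.8% of genes, and for 2 lower (Nr2f2 and Rarg), against 12.0%, which is near the background. The direction of these 4 held under each scaling tried, but with the column total in place of TMM their log2 differences were -0.39 for Nr2f2, 0.87 for Nr2c1, -0.24 for Rarg and 0.56 for Pgr.

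The scaling moved the plate comparison as a whole. The median log2 difference over all tested genes was 0.03 with TMM and 0.30 with the column total, and that of the members was -0.08 and turned to 0.21. The share of called genes that were lower on plate 2 was 93.1% of 29 with TMM and 4.79% of 1482 with the column total. The per-library CPM above use the column total, on which 11 of the 29 tested members had every plate 2 value above plate 1, against 35.2% of genes, and 1 had every value below, against 4.0%. Both counts are near the background.

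Without the middle-total library of plate 2, the edgeR test called 1911 of 15894 genes, 4.2% higher and 7.83% lower on plate 2. It called 2 of 29 members, Nr2f2 lower (log2 difference -0.53, adjusted p = 0.00486) and Nr2c1 higher (0.61, adjusted p = 0.0470). DESeq2 with all 6 libraries called Nr2f2 alone among the members (-0.68 ± 0.19, SE, adjusted p = 0.0162). None of the 56 tested genes of the 10 pathway lists was called by edgeR, in either direction, with 11 at an unadjusted p under 0.05. DESeq2 called 4 of them and limma-voom 0. Without the middle-total library edgeR called 10 of 58, of which 6 were higher on plate 2 (Ncoa2, Med1, Abca1, Srebf1, Fos and Egr1) and 4 lower (Hdac3, Aldh1a3, Hsp90ab1 and Ier2). In that fit 3 enteroendocrine markers also passed, Cck and Chga lower and Pcsk1 higher on plate 2, along with Tff3 lower, and the part of such differences in the members' values was not tested.

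**Figure D4:**
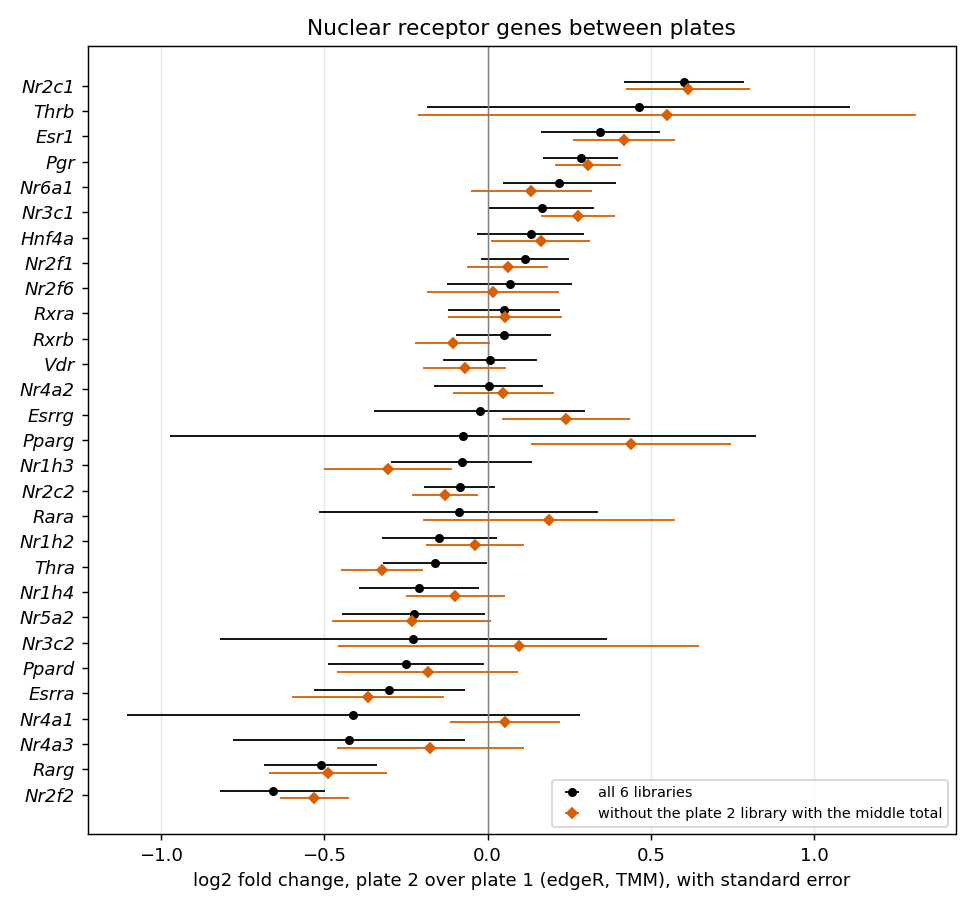
Log2 fold change of plate 2 over plate 1 (x axis, edgeR with TMM scaling, bars show the standard error) for the 29 tested members, with all 6 libraries in black and without the middle-total library of plate 2 in orange. Nr2c1 lies highest at 0.60 and Nr2f2 lowest at -0.66, and the bars of Pparg and Nr4a1 shorten most when that library is left out.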

How the data were processed

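Polyadenylated RNA of 6 GLUTag wells was sequenced with a 3′ mRNA kit. Per the labels and the study's methods, the authors trimmed reads with Trim Galore 0.6.4 and assigned them to GRCm38 transcripts with Salmon 1.5.1 without length correction, which Tximeta summed per gene. The deposited values are expected counts, estimated per gene and not always whole, without normalization. They were divided by the column total to give CPM and rounded for edgeR and DESeq2. Symbols, positions and exon overlaps came from GENCODE M21, a release other than the one the authors used, and 54107 of 54281 identifiers matched. The strand setting of the counting is not given in the sources used here. No 2 libraries matched within sampling noise (chi-square per gene at least 10.9), and all 6 were kept.

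The plate test was the robust quasi-likelihood test of edgeR 4.0.16, after filterByExpr and TMM scaling. DESeq2 1.42.0, limma-voom 3.58.1, other scalings and filters, and the omission of each library were the alternatives. Pairs were compared with numpy 2.4.6 in Python 3.11.15 (pseudocount 0.1 CPM), and R 4.3.3 was used. The scripts were tested on simulated data. Members, lists and tests were chosen with earlier results of these data known. Values in every library are given for members with a mean of at least 5 CPM, other members by mean or highest count, the 3 smallest p between plates, and for each list its 2 highest genes and those not detected in any library. Some of these list genes are not reported here. Other list genes were named after their values were seen. The secretion, knockdown and comparison datasets of the study were not analysed here.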

Additional observations from a re-analysis of the deposited data

Results flagged for a closer look

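Nr4a1 had 1.20 CPM in the middle-total library of plate 2, against 6.58 to 9.44 CPM in the other 5 libraries. It was flagged because the gap to the nearest library took 0.654 of the whole range, above Dixon's critical value for 6 samples. Of the 28 detected members tested in this way, 1 was past the critical value, and chance flags about 1 in 20 groups. The cause was not tested.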

How the results depend on the processing

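The count of genes called between plates, 29 with edgeR, was 584 with DESeq2, 10 with limma-voom, 1482 with the column total as scaling and 545 with no filter on low counts, and it ranged from 0 to 1911 when single libraries were left out. The count of members called, 0 with edgeR, was 1 with DESeq2, 2 with the column total (Nr2c1 and Pgr) and 2 with no filter (Nr2f2 and Nr0b2), and ranged from 0 to 2 with single libraries left out, where 2 came without the middle-total library of plate 2. On the column total, an alternative chosen after seeing the data, 11 members did not overlap higher on plate 2 (35.2% of genes) and 1 lower (4.0%). With a pseudocount of 1 CPM, also chosen after seeing the data, 3 members were at least 2-fold lower in the middle-total library. No share of all genes is given at that pseudocount, so this count has no background. The cause of these shifts was not tested. Detection counted 26 members with at least 10 counts in every library (25.4% of all 54281 genes) and 25 with at least 1 CPM (22.8%). It counted 37 with more than 3 counts in any library (40.3%), and 28 to 29 with single libraries left out (28.2% to 28.9%). With 5 libraries the smallest exact p of a pair is 0.0625, so no pair can then pass. No mean level of a detected member moved by more than 1 SD under the other scalings run. Leaving out 1 of 6 libraries cannot move a mean by 1 SD, so for single libraries left out this limit could not be passed and shows nothing. The log2 ratio of Ppard to Pparg, not called with all libraries, turned from 0.43 to -0.06 without the middle-total library of plate 2, and no other pair changed sign. No paired analysis was possible because the plates share no replicate numbers in the labels. Counts of 0 to 3 cannot tell a silent gene from one below the depth.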
